A study of Mus musculus with 435 samples.

Results

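The genes described here encode the fibrillar collagens and the proteins of the interstitial matrix. They were chosen by name, 36 genes of the 16459 in the deposited table. No measured value entered the rule, but earlier results of these data were known when the genes were chosen. They comprise 5 fibrillar collagen chains, 3 collagen VI chains, 3 fibril-associated or multiplexin collagens, 4 small leucine-rich proteoglycans, 11 elastic fibre and microfibril proteins, 5 genes for fibronectin, matricellular proteins and versican, and 5 genes for crosslinking, processing and chaperone proteins. Expression was measured by RNA-seq of single cells from XY mouse gonads, in cells sorted for green fluorescence from the NR5A1-eGFP reporter, carried by all animals on a mixed background. Nr5a1 encodes a nuclear receptor of the somatic cells of the gonad and of steroid-producing cells, so stromal cells without reporter fluorescence were outside the sort. Dead cells were removed with a dye, and the cells were captured on microfluidic chips of the small size, except for the first E13.5 capture, which used a medium chip. There was 1 capture at E10.5, and there were 2 at each of the later stages, E11.5, E12.5, E13.5 and finally E16.5. No other treatment or allele was given, and the number of embryos behind each capture is not in the labels.

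The deposited values were RPKM, reads scaled by gene length and by the mapped reads of the cell, for 400 cells, of which 396 were kept, in 9 captures of 30 to 59 cells. The capture served as the replicate, and a capture's value was the mean RPKM of its cells. E10.5 and E13.5 were labelled as sequenced to 25 M reads a cell and E11.5, E12.5 and E16.5 to 10 M, so depth and stage cannot be told apart except between stages of the same labelled depth. The sorted gene, Nr5a1, was at 1 RPKM or more in 55.9% of the E10.5 cells and in 70% to 94.1% of the cells of the other 8 captures. In the 3 captures of E10.5 and E11.5, called early here, the summed RPKM of 14 Sertoli markers was 105 to 223, against 856 to 5350.4 in the 6 late captures, those from E12.5 onwards. For 13 interstitial markers the sums were 533 to 563 and 462 to 754, and for 8 smooth-muscle markers 81.9 to 182 and 105 to 989. None of these markers was at 0 in all captures. Sums of 8 germ cell markers reached 102, in the late captures, against at most 0.948 in the early captures.

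Fibrillar collagens assemble into the fibres that give connective tissue its tensile strength, while collagen VI forms beaded filaments around cells. Small leucine-rich proteoglycans bind collagen fibrils and affect how they grow, and fibrillins with their partners build the microfibrils on which elastin is laid down. In the fetal testis, Sertoli cells gather with germ cells into cords, and the interstitium between the cords holds Leydig cells, vessels and mesenchyme.

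Dcn, which encodes the proteoglycan decorin, was the member that rose in the comparison of the late with the early captures. Its capture mean was 22.2 RPKM (E10.5), 43.9 and 15.7 (E11.5), 113 and 97.2 (E12.5), 349 and 246 (E13.5), and 419.9 and 523 (E16.5). All 6 late captures lay above all 3 early ones. A capture mean moves both with the share of cells that have the transcript and with the level in those cells. At E10.5, 10 of 59 cells had Dcn at 1 RPKM or more, with a median of 7.47 RPKM, and the highest cell was at 1026. The mean was 27.3 ± 14.8 RPKM in the early captures (SD, n = 3) and 291 ± 170.3 in the late ones (SD, n = 6). The difference was 3.24 on the log2(RPKM + 1) scale (SE 0.505, adjusted p = 0.0137 in limma, a linear model that borrows the spread across genes). Leaving out the E10.5 capture gave 3.16 with an adjusted p of 0.0554, and leaving out the first E13.5 capture gave 3.14 with 0.0508. Within the 10 M captures the difference was 3.03 (adjusted p = 0.26), and within the 25 M captures, 2 against 1, it was 3.66, which is the E13.5 comparison with E10.5 given below. Sertoli-like cells, described below, made up none of the early cells and 13.3% to 54.8% of the late ones, and without them and the Leydig-like cells the Dcn difference was 3.77 (adjusted p = 0.0389).

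In that comparison 33 members had enough signal to be tested, a mean of at least 1 RPKM in at least 2 captures. Of these, 1 was called at an adjusted p under 0.05, against 0.577% of all 12313 genes tested. Averaging log2 values over cells, in place of RPKM, gave 3 members higher (Dcn, Col6a1 and Col6a2) and 1 lower (Postn), with 30 of all genes higher and 53 lower, 0.674% in all. With all genes and the values of the text, 57 were higher and 14 lower. At an unadjusted p under 0.05 there were 16 members, 14 of them higher, against 10.9% of all genes. The late captures all lay above the early ones for 8 members (Col6a1, Col6a2, Dcn, Bgn, Fbn1, Fbln5, Sparc and Pcolce), a pattern found in 2.96% of all genes. The reverse pattern was found in 0 members and in 2.56% of all genes. The difference was above 0 in 25 of the 33 members, against 49.4% of all genes tested. Its median was 1.05 on the log2 scale, beside a median of -0.01 over all genes tested.

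**Figure D1:**
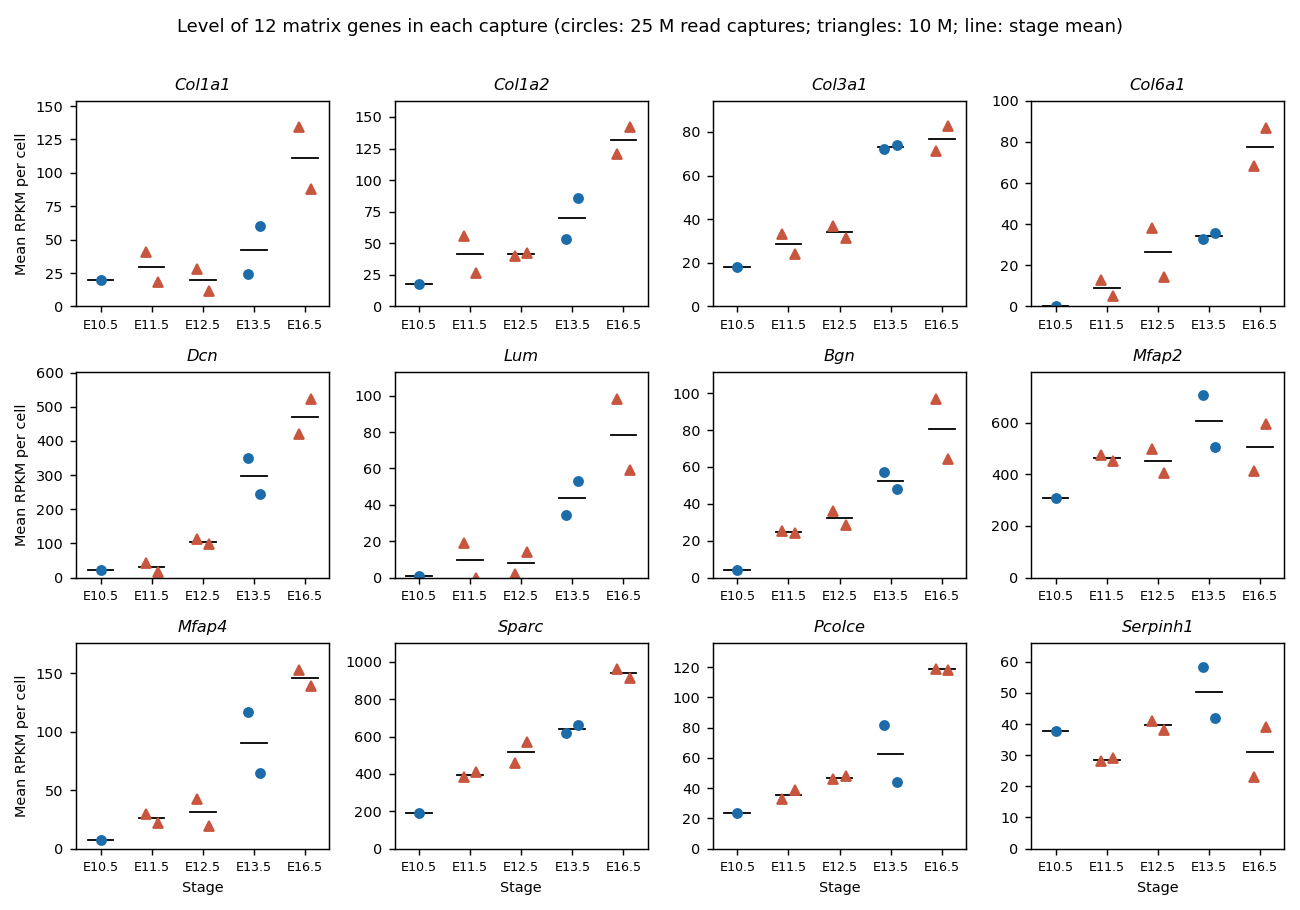
Mean RPKM over the cells of each capture, on a linear axis, for the 12 members with the highest stage mean, by stage, with a point for each capture and a line at the stage mean; circles are 25 M read captures and triangles 10 M ones. Dcn goes from 22.2 RPKM in the E10.5 capture to 419.9 and 523 in the E16.5 captures, while Mfap2 stays between 306 and 705.

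Between stages sequenced to the same labelled depth, 5 members rose from E10.5 to E13.5 and 5 from E11.5 to E16.5. These were 5 of 33 tested in each case, against 1.06% of all genes in the E13.5 comparison with E10.5 and 1.52% in the E16.5 comparison with E11.5. Col6a1, Dcn, Mfap4 and Sparc were called in both comparisons, Bgn in the former and Pcolce in the latter, and no member was called lower in either. The comparisons have no capture in common but use 1 estimate of the spread from all 9 captures. At an unadjusted p under 0.05 there were 21 members, all of them higher, in the E13.5 comparison (9.14% of all genes) and 16, 15 of them higher, in the E16.5 comparison (12.9% of all genes). With log2 values averaged over cells, the latter gave 8 members higher and 1 lower, Mfap2, with 304 of all genes higher and 193 lower (4.04%), against 122 and 65 otherwise. E10.5 had 1 capture, so its spread was taken to be that of the other stages.

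Promoter sequence, as placed by the RefSeq table in build GRCm38.p6, is shown for 3 of these 6 genes, because their level rose between stages. It is written 5′ to 3′ on the gene's strand, and capitals mark the motifs found.
Col6a1: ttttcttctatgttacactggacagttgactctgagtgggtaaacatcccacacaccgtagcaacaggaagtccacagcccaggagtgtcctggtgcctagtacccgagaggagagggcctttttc
Bgn: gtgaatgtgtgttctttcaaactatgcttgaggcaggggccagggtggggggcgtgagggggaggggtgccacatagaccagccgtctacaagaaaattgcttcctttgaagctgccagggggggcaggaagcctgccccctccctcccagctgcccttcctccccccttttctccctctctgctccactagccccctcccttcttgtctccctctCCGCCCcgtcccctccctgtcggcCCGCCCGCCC
Pcolce: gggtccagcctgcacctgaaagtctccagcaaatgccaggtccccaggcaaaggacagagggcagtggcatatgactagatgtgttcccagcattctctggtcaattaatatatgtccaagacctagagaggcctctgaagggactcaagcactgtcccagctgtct
Each run is taken from the 250 bases before the RefSeq start and stops before any exon that GENCODE M21 places there. For Col6a1 that leaves 126 bases, chr10:76726169-76726294 on the minus strand, for Bgn all 250, chrX:73483351-73483600 on the plus strand, and for Pcolce all but 83, chr5:137611488-137611654 on the minus strand. The annotations differ in their starts, by 124 bases for Col6a1, 1 for Bgn, 2380 for Pcolce and 3103 for Sparc. Gene spans given here are GENCODE's. By that span the printed Pcolce run lies inside the gene, downstream of the GENCODE start, so it is a promoter by the RefSeq start only. Sparc is not printed because little of its RefSeq window lies outside GENCODE exons. Both strands were searched for 5 motifs. They were the TATA box TATAAA, the box of letters CCAAT, the GC box with the letters GGGCGG, the Smad element written as CAGACA, and the nuclear receptor half-site written as AGGTCA. In the Bgn sequence the letters CCGCCC, the GC box read on the other strand, occur 3 times, the last pair overlapping, and the printed parts of Col6a1 and Pcolce have none of the 5. The 83 bases of the Pcolce window that are not printed hold a GC box, at -60 from the RefSeq start. The table held promoters for 22 of the 36 members, and over the whole windows GGGCGG was found in 12 of them, against 32.7% of all 32851 promoters in the table. CAGACA was found in 8 of the 22, against 17.1% of all promoters, TATAAA in 4, against 12.4%, CCAAT in 4, against 33.8%, and AGGTCA in 1, against 14%. Dcn and Mfap4 are the remaining genes of the 6.

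Collagen VI is built from 3 different chains. Col6a1, on chromosome 10 (76708792 to 76726168 on GRCm38, minus strand), had a capture mean of 0.0438 RPKM (E10.5), 13 and 5.07 (E11.5), 38.3 and 14.5 (E12.5), 32.8 and 35.5 (E13.5), and 68.2 and 86.7 (E16.5). The E10.5 capture was the lowest, all late captures lay above all early ones, and 1 of 59 cells at E10.5 had 1 RPKM or more (1.69%, Wilson 95% interval 0.3% to 9.0%). That share was 26.9% and 9.76% at E11.5 and 43.3% to 64.5% in the late captures. Col6a1 rose by 5.07 on the log2 scale from E10.5 to E13.5 (SE 0.685, adjusted p = 0.00364), from 0.0438 to 34.2 ± 1.93 RPKM (SD, n = 2). From E11.5 to E16.5 it rose by 3.08 (SE 0.559, adjusted p = 0.0197), from 9.05 ± 5.64 to 77.5 ± 13.1 RPKM (SD, n = 2 each). The late against early difference was 3.19 with an adjusted p of 0.0514. Col6a2 and Col6a3, the other chains, differed between late and early captures by 2.36 and 2.07 without passing the test. Col6a2 and Col6a1 lie 85.2 kb apart.

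The proteoglycans Dcn and Bgn (biglycan) are close relatives. Dcn, on chromosome 10 (97479609 to 97518143, plus strand), rose by 3.66 from E10.5 to E13.5 (SE 0.526, adjusted p = 0.00533) and by 4.10 from E11.5 to E16.5 (SE 0.43, adjusted p = 0.000813). In the latter it went from 29.8 ± 19.9 to 471 ± 72.8 RPKM (SD, n = 2 each), and it was called whichever of the 9 captures was left out. Bgn, on the X chromosome (73483602 to 73495933, plus strand), had 4.01 RPKM (E10.5), 25.5 and 24.4 (E11.5), 36.1 and 28.4 (E12.5), 57.1 and 48.1 (E13.5), and 97 and 64.6 (E16.5). Its E10.5 capture was the lowest and the late captures lay above both early stages. Bgn rose by 3.41 from E10.5 to E13.5 (SE 0.471, adjusted p = 0.00423), to 52.6 ± 6.38 RPKM (SD, n = 2). Lum (lumican), whose gene starts 47 kb beyond the end of Dcn, had 0.832 RPKM (E10.5), 18.9 and 0 (E11.5), 1.81 and 14 (E12.5), 34.3 and 53.1 (E13.5), and 98.1 and 58.9 (E16.5). Its captures of the same stage differed widely and its late against early difference of 3.08 did not pass (SE 1.16, adjusted p = 0.35). All 4 proteoglycans, Ogn (osteoglycin) included, had late minus early differences above 0, from 1.74 to 3.24.

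All 5 fibrillar collagens had higher log2 means in the late captures, and none passed in the fits used for the text. Col1a2 and Col3a1 were called late against early when stage means were contrasted with equal weight, a fit that called 2.44% of all genes. Col3a1 was also called from E10.5 to E13.5 with a pseudocount of 0.1 or no filter on low values, and Col1a1 within cluster 8 with log2 values averaged over cells. Col1a1 and Col1a2 encode the chains of type I collagen, Col3a1 that of type III, and Col5a1 and Col5a2 chains of type V, a minor fibril component that helps set fibril diameter. Col1a1, on chromosome 11 (94936224 to 94953042, plus strand), had 20 RPKM (E10.5), 40.7 and 18.3 (E11.5), 28.1 and 11.4 (E12.5), 24.6 and 60.6 (E13.5), and 134 and 88.2 (E16.5). The E16.5 captures were the highest, and the other late captures overlapped the early ones. The values of Col1a2 were 18.1, then 55.7 and 26.9, 40.1 and 42.4, 53.5 and 86.1, and 121 and 142 RPKM from E10.5 to E16.5. Those of Col3a1 were 18, then 33.3 and 24, 36.9 and 31.2, 72.4 and 74.1, and 71.4 and 82.6. The late against early differences of the 5 chains were 0.44 to 1.22 on the log2 scale, with a median of 0.85, and Col3a1 had 1.21 (SE 0.35, adjusted p = 0.167). Col5a1 and Col5a2 lay between 1.56 and 15.9 RPKM in all captures.

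**Figure D2:**
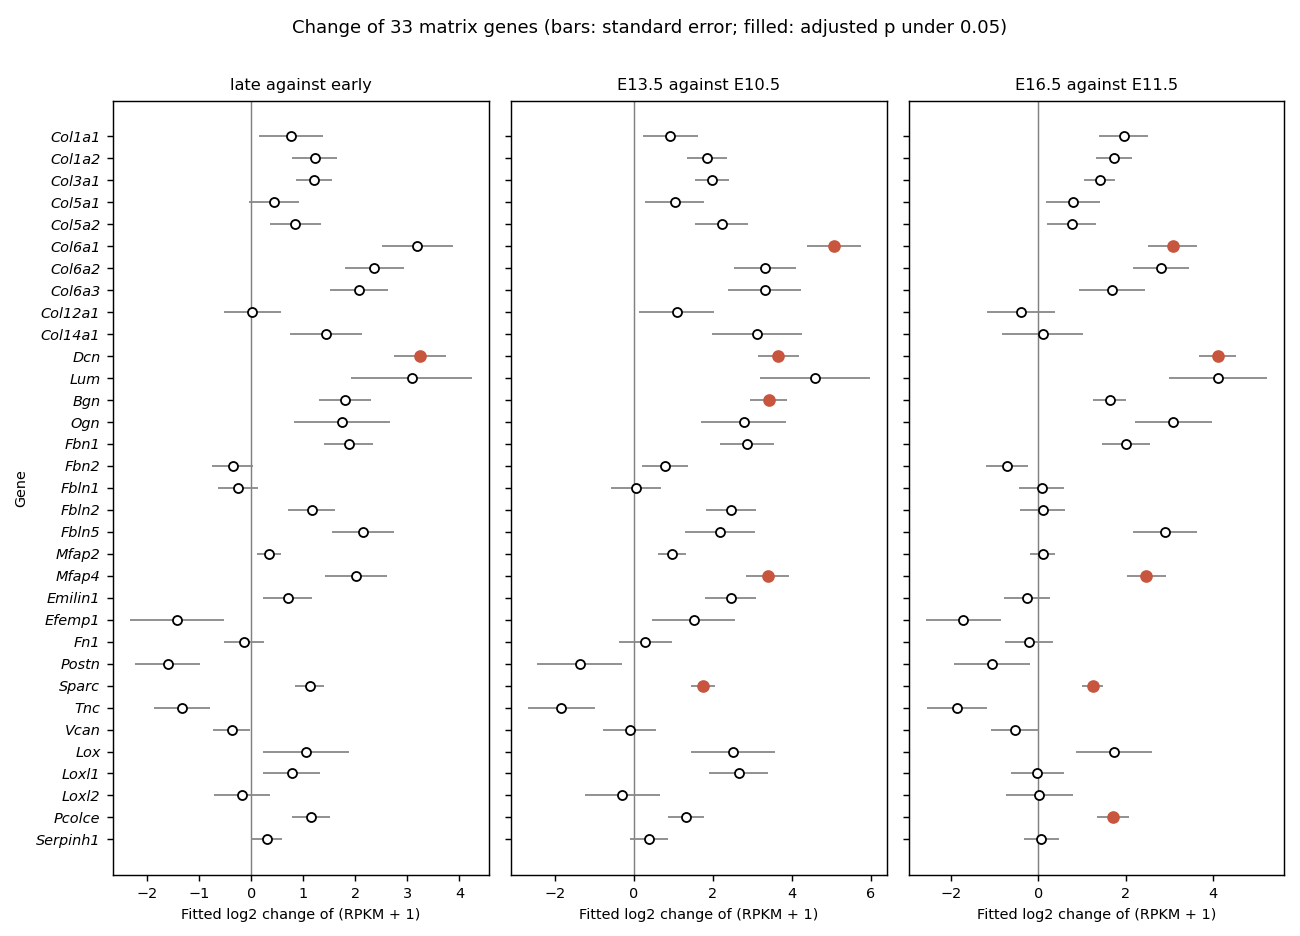
Log2 differences, in (RPKM + 1), with bars for their standard errors, for the 33 tested members in the late against early comparison and in the same-depth comparisons, with filled points for members past an adjusted p of 0.05. Dcn is filled in all of them, at 3.24, 3.66 and 4.10, and Postn and Tnc lie below 0 in the late against early comparison, at -1.61 and -1.33.

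Among the elastic fibre and microfibril proteins, Mfap4 passed the test in both same-depth comparisons. Mfap4 encodes a fibrinogen-related microfibril protein and lies on chromosome 11 (61485431 to 61488900, plus strand). Its capture means were 7.39 RPKM (E10.5), 29.4 and 22.2 (E11.5), 42.6 and 19.3 (E12.5), 117 and 64.3 (E13.5), and 153 and 139 (E16.5). The second E12.5 capture lay within the early range, and both later stages lay above it. It rose by 3.39 from E10.5 to E13.5 (SE 0.55, adjusted p = 0.0119) and by 2.47 from E11.5 to E16.5 (SE 0.449, adjusted p = 0.0198). Mfap4 overlaps Mapk7 on the opposite strand, whose capture means were 3.66 to 9.6 RPKM, and the preparation did not mark strand per the labels' kit names, so reads from the overlap cannot be told apart. Mfap2, which encodes another microfibril protein, was among the most abundant members at every stage. It had 306 RPKM (E10.5), 474 and 449.8 (E11.5), 498 and 404 (E12.5), 705 and 506 (E13.5), and 414 and 593 (E16.5). The stages overlapped, and the late against early difference was 0.34 (SE 0.224, adjusted p = 0.656). The share of cells with Mfap2 was 64.5% and 67.6% at E16.5 and 87.5% to 95.1% in the other captures. The E11.5 and E12.5 captures, of the same labelled depth as E16.5, had 92.3% to 95.1%. Of the Sertoli-like cells 52.2% had Mfap2, against 98.1% in cluster 8, and their share of cells was highest at E16.5, whose part was not tested.

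Fbn1 and Fbn2 encode the fibrillins. Fbn1 had 1.35 to 5.45 RPKM in the early captures and 7.31 to 32.4 in the late ones, which did not overlap, with a difference of 1.87 (SE 0.473, adjusted p = 0.105). Fbn2 had 10.6 to 28 and 8.23 to 22.5 RPKM, which overlapped. Fbln2, a fibulin that binds other matrix proteins, was highest in the first E12.5 capture at 69.4 RPKM, against 5.96 to 49.1 in the others. Efemp1, a fibulin-like protein found in 22 of 396 cells, had 1.39 RPKM (E10.5), 15.5 and 33.1 (E11.5), 0 and 0.973 (E12.5), 8.34 and 4.02 (E13.5), and 17 and 1.87 (E16.5). Captures of a stage differed widely. Eln (elastin) was not tested and did not exceed 0.25 RPKM before E16.5, where its values were 0.7 and 1.01. Mfap5 and Col15a1 were the other untested members, found in 6 and 20 of 396 cells.

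Sparc encodes a collagen-binding matricellular protein and was at 1 RPKM or more in 395 of 396 cells. It lies on chromosome 11 (55394500 to 55423183, minus strand) and had 189 RPKM (E10.5), 382 and 411 (E11.5), 458 and 573 (E12.5), 618 and 661 (E13.5), and 964 and 914 (E16.5). Each stage lay above the stage before it with no overlap of captures. It rose by 1.75 from E10.5 to E13.5 (SE 0.3, adjusted p = 0.0167) and by 1.24 from E11.5 to E16.5 (SE 0.245, adjusted p = 0.0288), in the latter from 397 ± 20.5 to 939 ± 35.4 RPKM (SD, n = 2 each). The other 4 members of its group, Fn1 (fibronectin), Postn (periostin), Tnc (tenascin C) and Vcan (versican), had late minus early differences below 0. Postn had 14.3 RPKM (E10.5), 12.2 and 11 (E11.5), 1.08 and 1.78 (E12.5), 1.69 and 12 (E13.5), and 1.64 and 12.9 (E16.5). The second captures of E13.5 and E16.5 reached the early level and the other late captures did not. The difference was -1.61 (SE 0.63, adjusted p = 0.35). Tnc was 3.58 to 8.65 RPKM in early captures and 0.373 to 4.61 in late ones (difference -1.33, SE 0.546, adjusted p = 0.379).

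Of the genes for processing proteins, Pcolce, the enhancer of procollagen C-proteinase, passed the E16.5 comparison with E11.5. It lies on chromosome 5 (137605103 to 137613784, minus strand) and its capture means were 23.2 RPKM (E10.5), 32.7 and 38.4 (E11.5), 46 and 47.8 (E12.5), 81.6 and 43.8 (E13.5), and 119 and 118 (E16.5). The late captures lay above the early ones. It rose by 1.71 from E11.5 to E16.5 (SE 0.373, adjusted p = 0.0454), and the call held in 3 of 9 fits that left out a capture. Serpinh1, the collagen chaperone HSP47, was found in 384 of 396 cells and stayed between 23.1 and 58.4 RPKM. Its late against early difference was 0.3 (SE 0.297, adjusted p = 0.79). The lysyl oxidase genes Lox, Loxl1 and Loxl2, whose products crosslink collagen and elastin, had values of at most 16.7 RPKM, and none passed in the fits used for the text. Loxl1 was called late against early in the 25 M captures only.

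In the E13.5 comparison with E10.5 the calls of Col6a1, Dcn and Mfap4 were lost without the first E13.5 capture, the one on the medium chip, with adjusted p of 0.0512, 0.0641 and 0.119. Bgn was called without it, at 0.046, and Sparc was called in every fit that left out a capture. In the E16.5 comparison with E11.5, Col6a1 was called in 4 of 9 such fits, Mfap4 in 5 and Sparc in 5, with largest adjusted p of 0.188 and 0.178 without the second E11.5 capture and 0.26 without the first. Pcolce reached 0.295 without the first E11.5 capture. Sertoli-like cells were absent at E10.5 and E11.5, and without them and the Leydig-like cells Sparc passed neither comparison, with differences of 1.51 (adjusted p = 0.15) and 0.93 (adjusted p = 0.16). Nor did Pcolce from E11.5 to E16.5 (1.63, adjusted p = 0.137) or Mfap4 from E10.5 to E13.5 (3.81, adjusted p = 0.0592). From E11.5 to E16.5, 8 of 35 members tested were called without those cells, all higher, against 0.716% of all genes, among them Col1a2 and Col3a1, which were not called with all cells. Dcn and Col6a1 passed both comparisons without those cells, Dcn with 4.01 (adjusted p = 0.038) and 5.13 (adjusted p = 0.00278), and Col6a1 with 5.26 (adjusted p = 0.038) and 3.91 (adjusted p = 0.0217).

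Between neighbouring stages no member passed. The shares of all genes called were 0.390% for E11.5 against E10.5, 0% for E12.5 against E11.5, 0% for E13.5 against E12.5 and 0.0893% for E16.5 against E13.5. The members' median differences in this order were 1.02, -0.04, 0.71 and 0.07, beside 0.07, -0.01, 0.0 and -0.06 over all genes tested. At an unadjusted p under 0.05 limma gave 8, 5, 7 and 5 members, against 6.39%, 7.80%, 4.57% and 8.47% of all genes. The smallest adjusted p among members in E11.5 against E10.5 was 0.0667, for Bgn, while in E12.5 against E11.5 it was 0.262, for Efemp1. For E16.5 against E12.5, at the same labelled depth, no member passed, with 0.357% of all genes called, while 16 members had an unadjusted p under 0.05, 15 of them higher, against 12.2% of all genes. The smallest adjusted p there was 0.0568, for Mfap4, with a difference of 2.30. The stage mean was highest at E16.5 in 17 of the 33 tested members and at E13.5 in 9, and lowest at E10.5 in 23. No share over all genes is given for these counts, and the E10.5 value is that of 1 capture.

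The other genes of matrix biology were counted in lists fixed by name. Of 10 tested other collagens and 19 tested genes of collagen modification and processing, none was called in any of these comparisons. Of 21 other microfibril, proteoglycan and matricellular genes, Ltbp4, which encodes a latent TGF-beta binding protein, was higher in late captures, at 11.2 ± 3.96 against 0.654 ± 0.57 RPKM (2.89 on the log2 scale, SE 0.431, adjusted p = 0.0117). Of 15 proteases and inhibitors, Serpine2, a serine protease inhibitor, was higher in late captures, at 58.7 ± 36.1 against 6.69 ± 2.68 RPKM (2.81, SE 0.449, adjusted p = 0.0137). Serpine2 also rose in both same-depth comparisons, by 3.07 (adjusted p = 0.0104) and 3.57 (adjusted p = 0.000971), and Ltbp4 rose from E11.5 to E16.5 by 3.14 (adjusted p = 0.021). From E10.5 to E13.5 there were 3 further calls. These were Timp3, an inhibitor of metalloproteinases (2.32, adjusted p = 0.0346), Itgb5, an integrin subunit and 1 of 11 tested receptors (2.33, adjusted p = 0.0471), and Creb3l1, a transcription factor for secretory genes and 1 of 14 tested TGF-beta and stromal genes (3.77, adjusted p = 0.0286).

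The cells were grouped into 8 clusters from marker genes of other kinds, with none of the 36 members used. Cluster 1 (67 cells) was Sertoli-like, with 6 Sertoli markers among its 10 leading genes, and cluster 2 (7 cells) was Leydig-like. Cluster 8 (104 cells) had the highest mean level of interstitial markers after scaling over cells, 0.333 against 0.175 in cluster 7 and 0.16 in cluster 5. It was led by Pdlim3, Plscr4 and Acta2, the last a smooth-muscle marker. No interstitial marker was among its 10 leading genes, and it is unnamed. Its summed interstitial markers were 696 to 1119 RPKM over captures, which overlapped the 554 to 1153 of cluster 5. The smooth-muscle markers of cluster 8 were 22.1 to 1776 RPKM, against 35.1 to 135 in cluster 5. Cluster 5 (109 cells, unnamed, led by Sfrp2) came mostly from E10.5 and E11.5, and cluster 6 (95 cells) was led by Pnliprp2 and Upk3b. Cluster 7 (10 cells, 9 of them from the second E12.5 capture) was germ-like, with 5 germ cell markers among its 10 leading genes. Its cells in that capture also had summed interstitial markers of 742 RPKM and Sertoli markers of 533. Cluster 8 held 0% of the cells at E10.5, 7 of 52 and 7 of 41 cells at E11.5, and then 16.7% and 37.8% (E12.5), 41.1% and 46.4% (E13.5), and 32.3% and 35.3% (E16.5). Levels by cluster are a description, with no test.

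In 5 captures, E12.5 to E16.5, both cluster 8 and the Sertoli-like cluster had at least 5 cells. Of the 36 members, 26 were higher in cluster 8 in all 5, and 2, Fbln2 and Sparc, were lower in all 5. Among the 33 tested members these counts were 25 and 2, against 9.08% and 7.65% of the 12313 genes tested, the genes used for clustering included. Col1a1 averaged 126 RPKM in cluster 8 and 1.62 in the Sertoli-like cluster, Mfap2 842 and 87.2, and Dcn 561 and 47.5. The reverse held for Fbln2, with 7.11 and 93.1 RPKM, and Sparc, with 606 and 1077. Pcolce had 97.8 and 87.4, and was higher in cluster 8 in 4 of the 5.

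Against cluster 5 the order was different. The captures with at least 5 cells of both were 4, those of E11.5, the first of E12.5 and the second of E13.5. There cluster 8 had the lower mean for 22 of the 36 members. Among the 33 tested members its mean was higher for 12, against 47.4% of all genes. It was lower in all 4 captures for 8 of the 33 tested members, against 6.34% of all genes, and higher in all 4 for 2, Sparc and Serpinh1, against 5.71%. Dcn averaged 48.7 RPKM in cluster 8 and 322 in cluster 5, Col1a2 56.2 and 98, and Mfap2 552 and 788, each lower in cluster 8 in all 4. The median number of members per cell was higher in cluster 5 in 3 of these captures, the widest gap being 16 against 11. In the first E11.5 capture it was 15 against 17. Means over all captures are of unlike stages, since cluster 5 had under 5 cells at E16.5 and cluster 8 had none at E10.5. On that footing 21 of the 33 tested members were highest in cluster 8, 8 in cluster 5 and 4 in the Sertoli-like cluster. These counts have no share over all genes beside them.

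**Figure D3:**
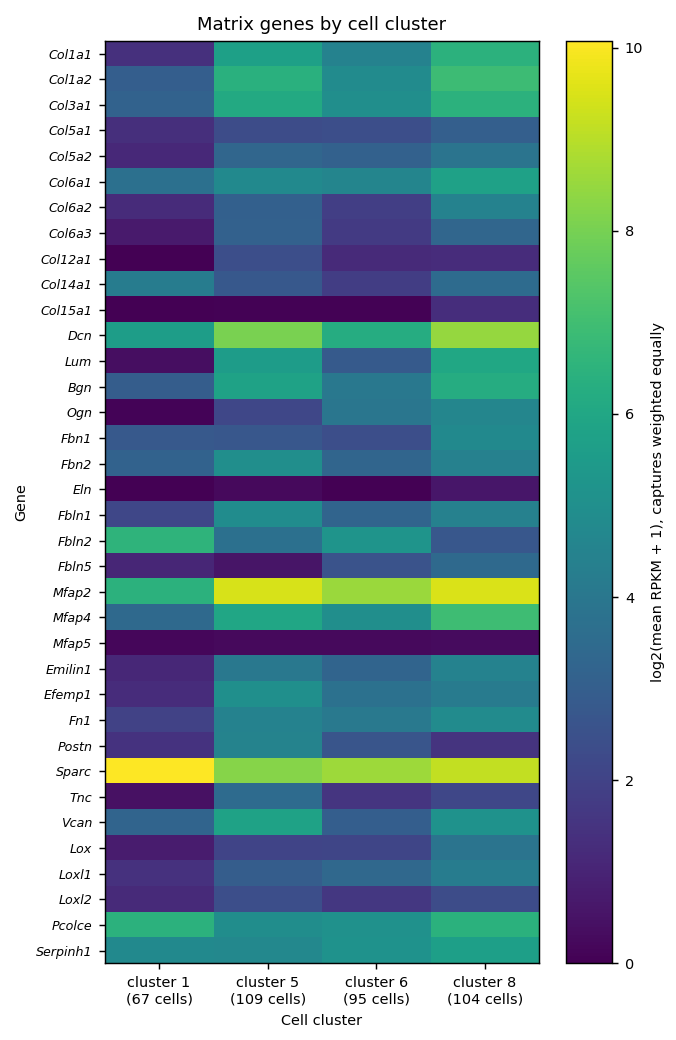
Mean RPKM of the 36 members in clusters 1, 5, 6 and 8, with captures weighted equally, as a colour scale of log2(RPKM + 1), with members ordered by role. The clusters were averaged over different captures, and in the 4 captures with both, cluster 5 exceeds cluster 8 for 22 of the 36 members. Cluster 8 is the higher there for 12 of the 33 tested members, against 47.4% of all genes. Fbln2 and Sparc stand out in the Sertoli-like cluster, lower in cluster 8 in all 5 captures with both.

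The Sertoli-like cells of the first E13.5 capture stood apart. Their 18 cells had a median of 18 members each, against 11, 11, 7 and 7 in the other 4 captures, and Dcn was at 188 RPKM in them against 0.129 to 26.4. Their interstitial marker sum was 276 RPKM, against 72.5 to 218, and their smooth-muscle marker sum 173, against 6.94 to 32. This is the capture on the medium chip, and the part of these values in the results was not tested. Fbln2 in Sertoli-like cells was 99.0 RPKM in the second E12.5 capture, 49.7 and 236 in the E13.5 captures, and 34.9 and 45.7 in the E16.5 ones, and Sparc was 961, 782, 1334, 1132 and 1176 in the same order. Neither overlapped cluster 8 in those captures, where Fbln2 was 0.981 to 17.2 and Sparc 534 to 694 RPKM.

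**Figure D4:**
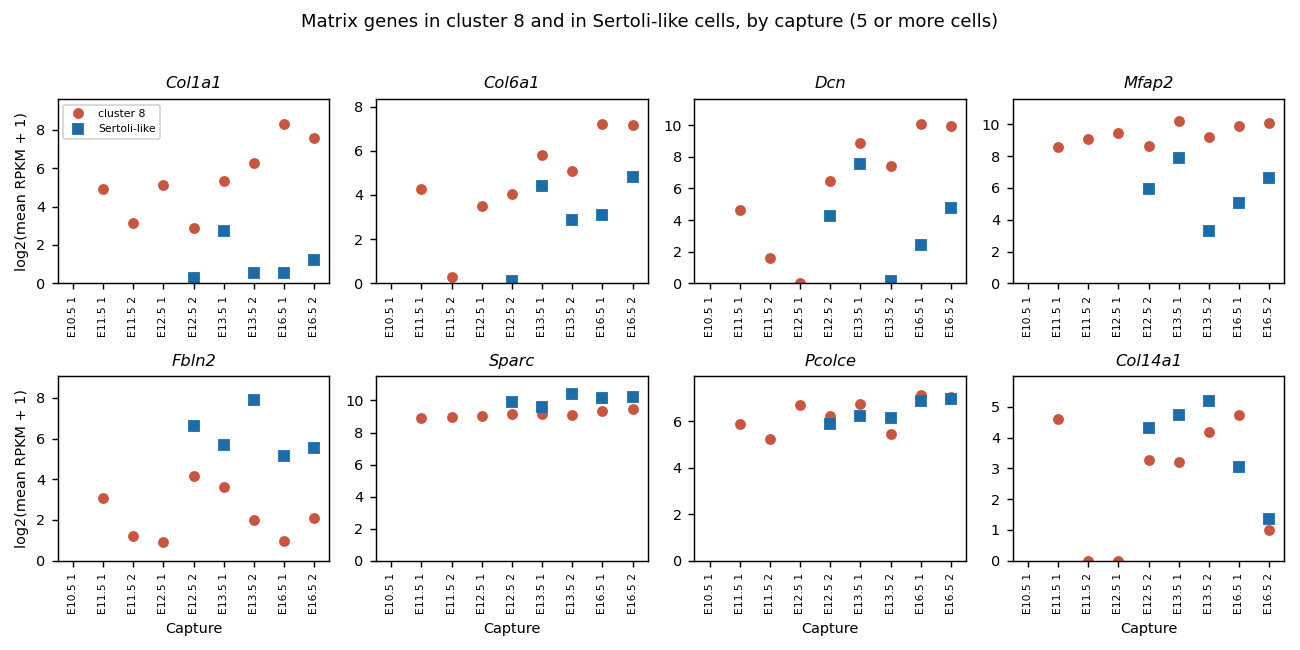
Mean RPKM over the cells of a capture in cluster 8 (circles) and in the Sertoli-like cluster (squares), as log2(RPKM + 1), for 8 members and the captures with at least 5 such cells. Col1a1 and Dcn are higher in cluster 8, and Fbln2 and Sparc in the Sertoli-like cells, in each of the 5 captures that hold both.

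The clusters that gave most of the Dcn RPKM differed between stages, as did the clusters present. At E10.5, where cluster 8 had no cells, cluster 5 gave 93.5% of the summed Dcn RPKM with 78% of the cells. That sum was uneven, since 10 of 59 cells had 1 RPKM or more, with a median of 7.47 RPKM and the highest at 1026. In the E16.5 captures cluster 8 gave 83.2% and 67.7% with 32.3% and 35.3% of the cells. In the second E13.5 capture, 9 cluster 5 cells, 16.1% of the cells, gave 65.2%. At E16.5 cluster 8 also gave 76.8% and 76.4% of Col1a1 and 75% and 64.5% of Mfap2. Sparc was divided otherwise, with 22.1% and 26.8% from cluster 8 and 64.4% and 53% from the Sertoli-like cells, which were 54.8% and 41.2% of cells. For Fbln2 the Sertoli-like cells gave 89% and 76.0% at E16.5.

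Within cluster 8, Dcn was 23.4 and 1.98 RPKM at E11.5, 0.0372 and 87.6 (E12.5), 464 and 169.5 (E13.5), and 1083 and 1003 (E16.5). Col1a1 was 29.2 and 7.71, 34.2 and 6.40, 38.6 and 76.5, and 318 and 191 RPKM in the same order. For both genes the E16.5 captures were the highest. The 7 cells of each E11.5 capture and the 5 of the first E12.5 capture limit those values. For E16.5 against E12.5 and E13.5 within cluster 8, 35 members were tested and none passed, as did 0% of 10597 genes. At an unadjusted p under 0.05 limma gave 14 members, all higher, against 8.44% of genes. Of the 35 members, 31 had a difference above 0, against 46.6% of all genes, with a median of 1.33 beside -0.09 for all genes. Col1a2 had the smallest adjusted p, 0.244, with 289 ± 14.8 RPKM at E16.5 (SD, n = 2) against 68.7 ± 29.1 (SD, n = 4).

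The share of cells with a member and the level in those cells did not always move together. Col1a1 was at 1 RPKM or more in 75% and 78.6% of cells at E13.5 and in 48.4% (Wilson 95% interval 32% to 65.2%) and 58.8% (42.2% to 73.6%) at E16.5. The median of the cells that had it was 22.3 and 52.2 RPKM in the E13.5 captures and 120.3 and 79.9 in the E16.5 captures. Fewer cells had Col1a1 at E16.5 while those that did had more, at a lower labelled depth than at E13.5. Of the Sertoli-like cells 23.9% had Col1a1, against 88.5% in cluster 8, and Sertoli-like cells made up 32.1% and 16.1% (E13.5), then 54.8% and 41.2% (E16.5), of their captures. The part of this mix in the result was not tested. The share of cells was higher in late than in early captures, on average, for 25 of 36 members, with no share over all genes given. Dcn was found in 16.9% of cells (E10.5), 30.8% and 19.5% (E11.5), 33.3% and 43.2% (E12.5), 64.3% and 41.1% (E13.5), and 58.1% and 64.7% (E16.5). Since 1 RPKM stands for 2.66 to 123 reads, depending on gene length and depth, a share also moves with depth, and its part was not tested.

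Across the cells of a capture, the 25 members found in at least 20% of all cells were compared in 300 pairs by Spearman's rho, averaged over the 9 captures. The median was 0.211, against 0.035 over pairs of the 7486 genes found as often, and capture medians were 0.052 to 0.512. The cells of a capture have library preparation and depth in common, so no p is given. The pair of type I collagen chains had the highest rho, 0.68 (0.36 to 0.86 over captures), followed by Col1a2 with Col3a1 and Col1a1 with Col3a1, both 0.63. Bgn and Mfap4 reached 0.51. Fbln2 with Mfap2 was -0.38 (-0.63 to -0.13), and Col1a1 with Sparc was -0.24. With the number of genes detected in a cell, members had a rho between -0.2 (Mfap2) and 0.37 (Fbln2).

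**Figure D5:**
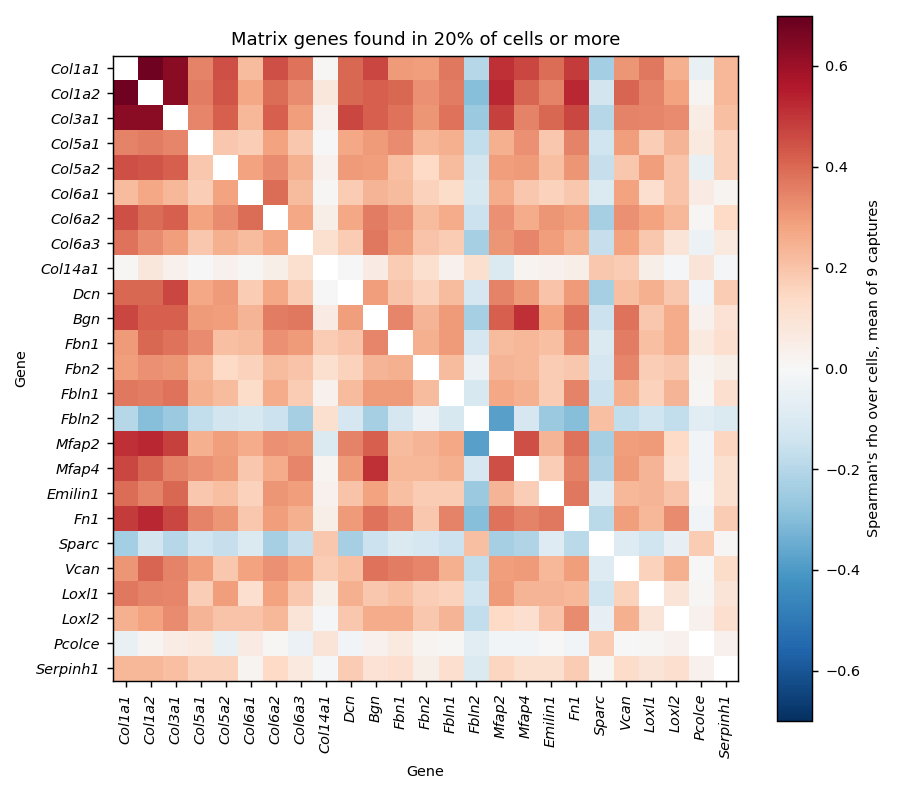
Mean Spearman rho over 9 captures for each pair of the 25 members found in at least 20% of cells, as a colour grid. The type I and III collagen chains form the block of highest values, up to 0.68, while Fbln2 has values below 0 with Mfap2 (-0.38) and Fn1 (-0.3).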

How the data were processed

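Single-cell libraries came from 435 labelled cells. The deposited table holds RPKM values that the authors computed for 400 of these cells, and the other 35 were not analysed here. GRCm38 p3 and mm10 are the builds in the submitters' processing notes. The aligner is not given in the sources used here, nor is the counter. A pair of wells whose values correlated at 0.9983 in the second E12.5 capture (next highest 0.701) was averaged and counted as 1 cell, and 3 cells with fewer than 3000 detected genes were removed, which left 396. Doublets were not called. Depth, read from the step of low values and the exonic length in GENCODE M21, had a median of 2.2 to 8.08 M reads a cell over captures.

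Cells are not replicates. RPKM was averaged over the cells of each capture and log2(mean + 1) was tested with limma 3.58.1 (trend and robust, R 4.3.3) over all genes whose mean reached 1 in 2 or more captures, with Benjamini-Hochberg adjustment and a threshold of 0.05. The 5-stage fits share the spread of all 9 captures. The labels do not say that captures came from separate litters, so p-values measure the spread between captures, which may be technical. Cells were clustered into 8 groups on 88 of 106 marker genes, with a named class needing its own markers among the leading genes. Scripts were tested on simulated data. Wilson intervals at 95% cover counting error over cells only. Python 3.11.15, pandas 2.3.3 and scipy 1.17.1 were used.

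The members and lists were chosen with earlier results of these data known. Values by capture are given for members that passed any comparison and for the 12 with the highest stage mean, and up to 3 called genes each way from each pathway list. Genes outside that rule, such as Efemp1, Postn, Tnc and the fibrillins, were named after their values were seen. Alternatives were the pseudocount (0.1), no filter on low values, mean of log2 values over cells, median-ratio scaling, at least 4000 detected genes, limma without trend and robust, captures of 1 labelled depth, a contrast of stage means, other numbers of clusters and leaving out each capture. Leaving out the Sertoli-like and Leydig-like clusters, and the 10 M captures alone in the stage comparisons, were added after the data were seen.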

Additional observations from a re-analysis of the deposited data

Results flagged for a closer look

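In the groups of 6 late captures, 3 of 33 members had a capture farther from the rest than a Dixon test at 95% allows, and chance gives about 1 in 20. Ogn, a small leucine-rich proteoglycan, was at 71.7 RPKM in the first E16.5 capture, against 0.566 to 14.7 in the other 5. Fbln5, a fibulin of elastic fibres, was at 25.8 RPKM in the same capture, against 3.27 to 6.03. Emilin1, an elastin-associated glycoprotein, was at 23.2 RPKM in the second E13.5 capture, against 8.36 to 13.2.

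Fbn2 differed in direction between the 10 M and the 25 M captures, which come from different stages. In the 10 M captures its mean was 11.7 RPKM in late (E12.5 and E16.5) and 23.1 in early captures (E11.5), a difference of -11.4. In the 25 M captures the late mean (E13.5) was 8.56 RPKM higher than the early one (E10.5). Depth and stage cannot be told apart here, and the difference in direction was not tested.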

How the results depend on the processing

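Counts of members called are given here beside the value in the text, with the share of all genes called by the same fit. For the fits with a capture left out that share is not given, so those counts have no background beside them. For late against early (1), they were 0 with no filter on low values (0.0243%), 4 with the mean of log2 values (0.674%), 2 without the clusters led by endothelial, germ or adrenal genes (0.522%), 0 in the 10 M captures only (0%), 13 in the 25 M captures only (3.98%, 2 captures against 1, the spread from the E13.5 pair), 11 with a contrast of stage means (2.44%), and 0 to 4 with a capture left out. For E11.5 against E10.5 (0), they were 2 with a pseudocount of 0.1 (0.796%), 1 with no filter (1.25%) and 1 with at least 4000 genes (0.431%). For E16.5 against E13.5 (0), 1 was called with the mean of log2 values (0.585%). For E13.5 against E10.5 (5), they were 3 with no filter (1.56%), 8 with the mean of log2 values (1.93%), 1 with limma without trend and robust (0.341%), 3 without the Sertoli-like and Leydig-like clusters (0.222%), and 2 to 6 with a capture left out. For E16.5 against E11.5 (5), they were 0 with no filter (0.164%), 9 with the mean of log2 values (4.04%), 1 with limma without trend and robust (1.15%), 8 without the Sertoli-like and Leydig-like clusters (0.716%), and 1 to 6 with a capture left out. For E16.5 against E12.5 (0), they were 4 with the mean of log2 values (1.97%), 1 with at least 4000 genes (0.593%), 1 without the Sertoli-like and Leydig-like clusters (0.123%), and 0 to 1 with a capture left out. Within cluster 8 (0), 6 were called with the mean of log2 values (0.274%). With the mean of log2 values the genes called from E10.5 to E13.5 were 69 higher and 169 lower, against 118 and 13 in the text's fit. The cause of these changes was not tested. Members called in the text kept their direction in these settings, while Mfap2, not called in the text, was called lower with the mean of log2 values in the 3 comparisons of E16.5. Median-ratio scaling moved the median over all genes by more than 0.1 in cluster 8 alone, from -0.09 to 0.03. No paired analysis was possible because the captures of different stages have no number in common that the labels tie to a litter or day. The limits are the 1 capture at E10.5, the labelled depth that changes with stage, the unequal mix of cell kinds between captures, and the unknown number of embryos per capture. With 5 to 7 cells of cluster 8 in some captures, levels there rest on few cells.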
